A study of Mus musculus with 8 samples.

Results

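The experiment compared colon epithelium that lacked the nuclear receptor gene Rora with floxed controls after chemical injury. Its members were the 4 libraries of mice given dextran sulfate sodium (DSS), chosen by their sample names out of 8 libraries in the series. All mice were C57BL/6 per the labels, and intestinal epithelial cells were taken from the distal colon. The controls carried floxed Rora alleles without the deletion (WT, 2 libraries), and the other mice carried the deletion in intestinal epithelial cells (KO, 2 libraries). Both groups drank 2% (w/v) DSS for 5 days and then water without DSS for 3 days, so the tissue was sampled early in recovery. The remaining 4 libraries were untreated, with 2 of each genotype. The Cre driver, the age and the sex of the mice are not given in the sources used here. Every library held RNA of Y-linked genes and next to none of Xist, the RNA of the inactive X chromosome, as male tissue does. Nothing in the labels says that replicates were separate mice, so the p-values measure only the spread between libraries, which may be technical.

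RORα is a ligand-regulated transcription factor that binds DNA mostly as a monomer at ROR response elements. It shares those elements with the REV-ERB repressors, and together they shape circadian transcription of genes such as Arntl. RORα is also known to act on lipid metabolism and to dampen inflammatory signalling, in part by raising the NF-κB inhibitor IκBα. DSS strips and ulcerates the colon surface, and recovery joins crypt proliferation, spreading of surface cells over the wound and influx of neutrophils and monocytes.

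Rora RNA was scarce in all 4 DSS libraries. The counts were 16 and 14 in the WT libraries and 8 and 5 in the KO libraries. The ranges did not overlap, which was also so for 68.1% of all genes tested. The ratio of KO to WT was 0.418, with a 95% exact counting interval of 0.200 to 0.826. In edgeR's quasi-likelihood test the log2 fold change was -1.24 ± 0.45 (SE), with an adjusted p = 0.0425. That call was lost in 9 of 16 alternative fits, including those without WT replicate 1, WT replicate 2 or KO replicate 2 and the DESeq2 Wald test (adjusted p = 0.286). Whether reads covered the floxed exon cannot be read from counts per gene.

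The DSS libraries held between 16529551 and 17062185 expected counts each. The check of the labelled cell type found epithelial genes at high levels in every one. Epcam, the epithelial adhesion molecule, measured mean levels of 1819 ± 57.0 (SD, n = 2) CPM (counts per 1000000, after scaling) in WT and 1838 ± 27.9 (SD, n = 2) in KO. Values below are CPM, given for replicate 1 and replicate 2 of each genotype in turn, and fold changes are log2 values of KO over WT under DSS with the SE from edgeR. A gene is said to rise or fall, or to be higher or lower, when its Benjamini-Hochberg adjusted p from edgeR over all genes was under 0.05. A fall in such bulk RNA can reflect fewer cells of a type or less RNA per cell, and these cannot be told apart.

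Loss of Rora under DSS went with change across much of the transcriptome. Of 14991 genes tested, 3198 (21.3%) rose and 2657 (17.7%) fell in KO, so 39.1% were called. Counts for each gene list below are to be read beside these shares. At least a 2-fold change was found for 628 of the higher genes (4.19% of those tested) and 300 of the lower genes (2%). The median log2 fold change over all genes tested was -0.01. The rises reached far larger folds than the falls. A gene entered the test when its counts were high enough in any 2 libraries, and 313 genes (2.09%) did so through the DSS-treated KO libraries alone. Lcn2, Retnlg and Ccl4 are among them. Such genes were selected by their level in KO, so their number is given for each list in which they were more than a single gene. Below, besides the members of each list with the smallest p-values, further members are given as examples chosen after their values were seen. A gap between the genotypes in such named genes follows in part from how they were chosen. Over all genes tested, 68.1% had libraries of the 2 genotypes that did not overlap.

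The lead genes among the rises were secreted defence and acute-phase products and neutrophil genes. Lcn2, lipocalin 2, which withholds bacterial siderophores (mm10 chromosome 2, 32384633 to 32388252), measured 0.12 and 0.353 CPM in WT and 11.1 and 13.6 CPM in KO. Lrg1, leucine-rich alpha-2-glycoprotein (chromosome 17, 56119678 to 56122001), measured 4.03 and 3.77 CPM in WT and 124 and 135 CPM in KO. For both genes the KO libraries lay more than an order of magnitude above the WT libraries, with log2 fold changes of 5.65 ± 0.30 (adjusted p = 1.10e-08) and 5.05 ± 0.10 (adjusted p = 1.83e-13). Lcn2 had 2 and 6 counts in WT. Like Retnlg and Ccl4, it entered the test through the DSS-treated KO libraries alone, so its level in KO selected it. Hp, haptoglobin, which binds free haemoglobin, measured 1.44 and 1.24 CPM in WT and 16.2 and 20.8 CPM in KO (3.78 ± 0.20). The matrix protease gene Mmp9 measured 0.661 and 0.707 CPM in WT against 11.6 and 12 CPM in KO (4.09 ± 0.23). Also among the 12 largest rises were Retnlg, S100a8, S100a9, Saa3, Ccl4, Cxcl5 and Cxcl2, with log2 fold changes from 3.53 to 5.04. All gene positions given are those of mm10.

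The largest falls came from genes of varied function, with oxidative metabolism, transport and signalling among them. Arhgap20, a GTPase-activating protein gene (chromosome 9, 51765337 to 51853856), measured 16.6 and 16.3 CPM in WT and 2.88 and 3.09 CPM in KO, a log2 fold change of -2.46 ± 0.12 (adjusted p = 2.54e-09). Cyp2c55, a cytochrome P450 of colon epithelium (chromosome 19, 39007019 to 39042693), measured 229 and 242 CPM in WT and 49.2 and 48.5 CPM in KO (-2.27 ± 0.05, adjusted p = 4.99e-13). In both genes the replicates lay close together and the genotypes far apart, and the rule for naming required groups that did not overlap. Bmp3, a secreted antagonist within the BMP family, measured 29.5 and 31.7 CPM in WT against 8.52 and 9.16 CPM in KO (-1.79 ± 0.08). Slc3a1, a subunit of the cystine and dibasic amino acid transporter, measured 26.7 and 24.8 CPM in WT against 8.0 and 7.04 CPM in KO (-1.78 ± 0.11). Also among the 12 largest falls were H2-T3, B3gnt6, Slc8a1, Rgs17, Mcpt1, Abca12 and Fabp2, with log2 fold changes from -2.20 to -1.71.

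**Figure D1:**
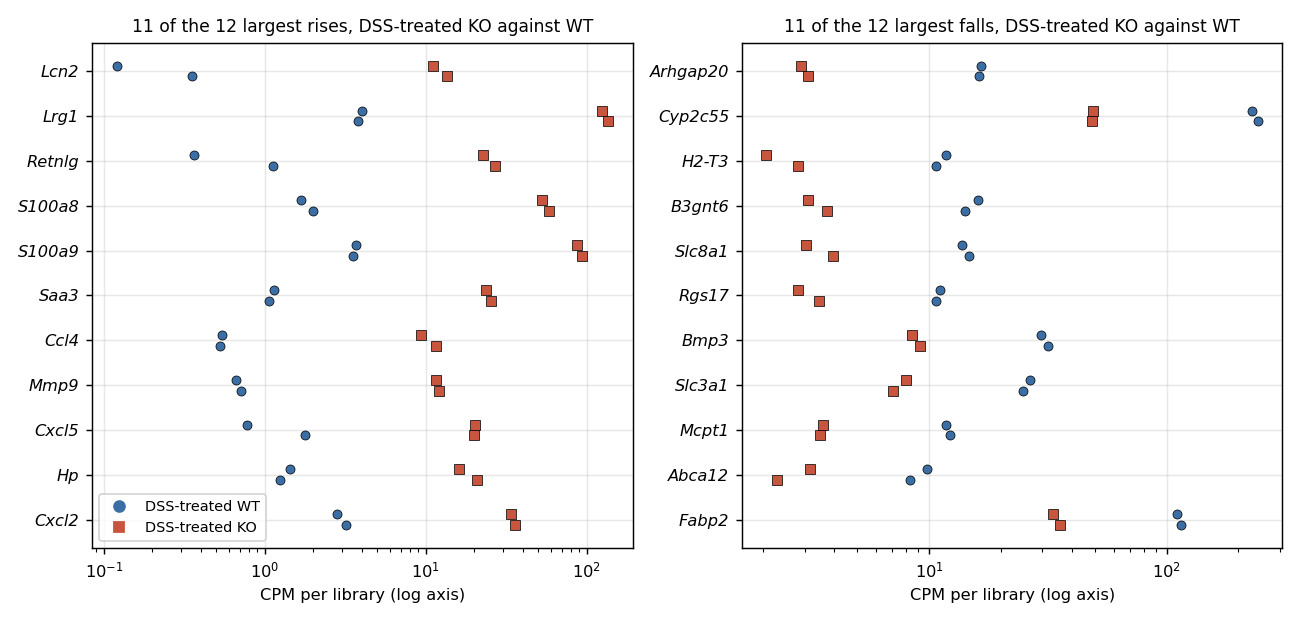
Level of 11 of the 12 largest rises (left) and 11 of the 12 largest falls (right) in each DSS library, as CPM on a log axis. Circles are the 2 WT libraries and squares the 2 KO libraries of each gene. The genotypes did not overlap in any of these genes, which the rule for naming required, and over all genes tested 68.1% had libraries that did not overlap.

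The promoters of the 2 largest rises and 2 largest falls are shown so that the sequence at each start can be read beside its change. Each runs 5′ to 3′ on the gene's own strand from 250 bases before to 50 bases after the RefSeq start in GRCm38.p6. They lie at chr2:32387690-32387989 on the minus strand (Lcn2), chr17:56121897-56122196 on the minus strand (Lrg1), chr9:51765101-51765400 on the plus strand (Arhgap20) and chr19:39006769-39007068 on the plus strand (Cyp2c55). Capitals mark the match to the NF-κB type motif (GGG, any 5 bases, then CC) on either strand, which was the only match in each to the 5 motifs searched.
Lcn2: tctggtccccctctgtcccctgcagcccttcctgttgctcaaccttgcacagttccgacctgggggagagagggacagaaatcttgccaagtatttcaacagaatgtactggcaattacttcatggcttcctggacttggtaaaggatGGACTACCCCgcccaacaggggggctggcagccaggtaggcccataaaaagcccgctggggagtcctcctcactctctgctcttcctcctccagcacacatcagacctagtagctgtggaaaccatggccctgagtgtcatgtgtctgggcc
Lrg1: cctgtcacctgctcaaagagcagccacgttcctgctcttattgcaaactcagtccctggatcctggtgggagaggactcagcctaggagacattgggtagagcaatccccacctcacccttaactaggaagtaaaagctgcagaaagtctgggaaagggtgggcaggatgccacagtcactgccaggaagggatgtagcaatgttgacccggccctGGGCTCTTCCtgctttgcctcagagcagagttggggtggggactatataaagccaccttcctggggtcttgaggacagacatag
Arhgap20: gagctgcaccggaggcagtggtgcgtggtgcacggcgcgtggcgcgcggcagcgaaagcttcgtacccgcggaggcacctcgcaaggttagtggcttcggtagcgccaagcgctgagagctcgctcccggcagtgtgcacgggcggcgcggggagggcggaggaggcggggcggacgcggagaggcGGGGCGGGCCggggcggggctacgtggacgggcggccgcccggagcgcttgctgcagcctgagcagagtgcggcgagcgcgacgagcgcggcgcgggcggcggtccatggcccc
Cyp2c55: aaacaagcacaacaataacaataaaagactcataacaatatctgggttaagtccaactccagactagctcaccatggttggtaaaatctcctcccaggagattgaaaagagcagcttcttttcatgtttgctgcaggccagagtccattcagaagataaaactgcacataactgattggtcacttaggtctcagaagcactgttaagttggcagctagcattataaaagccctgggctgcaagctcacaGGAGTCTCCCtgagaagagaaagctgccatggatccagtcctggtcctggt

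The match began at base -102 from the start in Lcn2, -34 in Lrg1, -64 in Arhgap20 and -1 in Cyp2c55, with -1 as the last base before the start. That motif is loose, and 66.3% of the 13632 promoters of all genes tested held it, against 62.1% of those of genes at least 2-fold higher and 57.6% of those at least 2-fold lower. A promoter was found for 472 of 627 symbols at least 2-fold higher and 193 of 300 at least 2-fold lower. The STAT type motif TTCNNNGAA was in 10.5% of the promoters of the higher genes, 7.35% of those of the lower genes and 6.98% of all. The AP-1 type motif TGANTCA was in 9.57%, 8.98% and 5.49% of them in the same order. The ROR type motif, TAGGTCA or TGGGTCA, was in 5.32%, 6.12% and 5.12%. The HNF4 type motif CAAAGTCCA was in 0.71%, 2.04% and 0.48%, where the share for the lower genes rests on 5 promoters. Both strands were searched for each motif, and the windows of some genes overlap.

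Transcript length moved with these measurements and is given here because it bears on several gene groups. Over 7383 genes at 20 CPM or more, the log2 ratio of KO replicate 1 to KO replicate 2 had a Spearman correlation of 0.70 with transcript length. The same correlation was 0.34 for the WT replicates under DSS and -0.32 for the fold change of KO over WT under DSS. For the fold change of KO over WT in untreated libraries it was 0.24, of the opposite sign. These are correlations across genes that share their libraries. The median length was 2029 bases for the higher genes, 3164 bases for the lower genes and 2354 bases for all genes tested. With the genes split by length into 10 bins, the median log2 fold change was 0.14 in the bin of shortest genes and -0.14 in that of longest genes. When a length trend was removed from each library, an alternative added after seeing the data, 5141 of the 5855 calls were kept in the same direction and 17 reversed in sign. Where a group's count moved by more than 1.5 times with that step, the count is given beside it. Its part in the other results was not tested further.

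**Figure D2:**
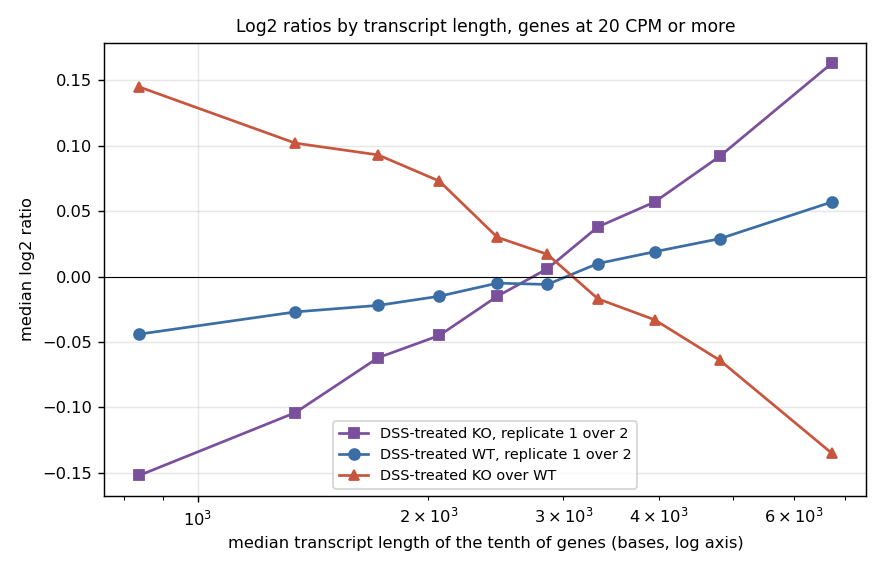
Median log2 ratio (y axis) in 10 bins of the 7383 genes ordered by transcript length (x axis, bases, log scale). The ratio of KO replicate 1 to replicate 2 (squares) climbed from -0.15 in the shortest bin to 0.16 in the longest, the WT replicate ratio (circles) from -0.04 to 0.06, and the fold change of KO over WT (triangles) went from 0.14 down to -0.14.

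The KO libraries also differed more from each other than the WT libraries did. The median absolute log2 ratio between replicates was 0.08 in KO and 0.05 in WT, against 0.16 between genotypes. Zbed6, a zinc finger gene, measured 25.1 and 11 CPM in the KO libraries and 29.7 and 29.9 CPM in the WT libraries. Srcap, a chromatin remodeller gene, measured 62.7 and 30.1 CPM in KO and 73.1 and 63.2 CPM in WT. Both had one KO library near the WT level and the other far below it. Sned1, Vps13c and Kat6b were also higher in KO replicate 1. Cuedc2, Fes, Mrpl14, Mrpl58 and Timm13 were higher in KO replicate 2, as in the mitochondrial import gene Timm13 with 44.7 and 59.9 CPM.

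The epithelium of DSS-treated KO mice carried more RNA of the cell cycle. All 30 mitosis genes tested and all 33 DNA replication genes tested were higher, and 0 were lower. Their median log2 fold changes were 1.21 and 1.00. Summed over the mitosis list, the level was 837 and 836 CPM in WT and 1825 and 1768 CPM in KO. Top2a, the topoisomerase that untangles replicated DNA, measured 77.0 and 78.2 CPM in WT and 215 and 200 CPM in KO (log2 fold change 1.42 ± 0.05, adjusted p = 1.92e-10). Ccna2, cyclin A2 of S and G2 phase, measured 41.1 and 41.3 CPM in WT against 115 and 105 CPM in KO (1.42 ± 0.06). The KO libraries held more of both genes than either WT library, though genes were named by their p-values or after their values were seen. Kif11, the kinesin that drives spindle poles apart, measured 25.5 and 25.2 CPM in WT against 61.2 and 59.9 CPM in KO (1.26 ± 0.06). Among replication genes, the helicase subunit Mcm3 measured 16.6 and 15.0 CPM in WT against 44.8 and 49.0 CPM in KO (1.57 ± 0.07). The ribonucleotide reductase subunit Rrm1 measured 33.0 and 35.0 CPM in WT against 96.0 and 97.1 CPM in KO (1.5 ± 0.06), and the helicase subunit Mcm5 24.1 and 23.1 CPM against 67.8 and 66.8 CPM (1.51 ± 0.07).

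Crypt stem cell and Wnt-response genes were mixed. Of 18 tested, 3 were higher and 6 lower, with a median log2 fold change of -0.10. Lgr5, the receptor that marks crypt base stem cells, averaged 13.1 CPM in WT and 9.04 CPM in KO (-0.54). Axin2, a feedback target of Wnt signalling, averaged 28.3 CPM in WT and 23.5 CPM in KO (-0.27), and both fell. Prom1, a membrane protein of crypt progenitors, measured 336 and 335 CPM in WT and 277 and 279 CPM in KO (-0.27 ± 0.04). Sox9, a crypt transcription factor, measured 64.3 and 63.2 CPM in WT and 52.8 and 50.7 CPM in KO (-0.30 ± 0.06). Cd44, a hyaluronan receptor of crypts and leukocytes, went the other way, from 27.4 and 25.4 CPM to 40.7 and 35.6 CPM (0.53 ± 0.08).

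Inflammatory genes were read by role, from ligands to receptors. Neutrophil markers, described with the other cell types, summed to 67.1 and 69.5 CPM in WT and 390 and 417 CPM in KO in the same libraries. Of 34 chemokine genes listed 17 could be tested, and 4 of those, all higher, entered through the DSS-treated KO libraries alone. Of the other 13, 6 were higher and 4 lower, with a median log2 fold change of 0.35. Cxcl2, which draws neutrophils through CXCR2, measured 2.82 and 3.18 CPM in WT and 33.7 and 35.7 CPM in KO (3.53 ± 0.12, adjusted p = 6.90e-11). Cxcl5, another CXCR2 ligand, measured 0.781 and 1.77 CPM in WT against 20.3 and 19.9 CPM in KO (3.97 ± 0.24), and Ccl4, a monocyte and lymphocyte attractant, 0.541 and 0.530 CPM against 9.32 and 11.6 CPM (4.27 ± 0.27). The lower members were Ccl6, Cx3cl1, Ccl27a and Ccl25, the last an attractant for gut-homing lymphocytes, and they numbered 2 in the DESeq2 Wald test.

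In the interleukin-1 family 9 of 18 genes tested were higher and 3 lower. Of the 14 that did not enter through the DSS-treated KO libraries alone, 5 were higher and 3 lower, with a median log2 fold change of -0.001. The lower count became 1 without WT replicate 2. Il1b, a cytokine made mostly by myeloid cells, measured 9.31 and 8.83 CPM in WT and 69.0 and 72.7 CPM in KO (2.97 ± 0.08). Il1a, an alarmin of injured epithelium and myeloid cells, measured 0.781 and 0.294 CPM in WT against 8.80 and 8.93 CPM in KO (4.03 ± 0.27), and the decoy receptor Il1r2 0.541 and 1.18 CPM against 8.28 and 7.73 CPM (3.20 ± 0.27). For Il1b the KO libraries lay well above both WT libraries. Il1a and Il1r2 were scarce in DSS-treated WT, and genes so scarce there enter the test more readily when KO is high. The receptor Il1r1 went the other way, with a mean of 18.4 CPM in WT and 9.73 CPM in KO (-0.92).

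The NF-κB pathway was read in 2 lists. Of 15 inhibitor genes 12 were higher and 1 lower (median log2 fold change 0.41), and of 17 subunit and kinase genes 3 were higher and 3 lower (median 0.02). The difference between the lists was not tested. Nfkbia, which encodes IκBα, measured 49.6 and 48.6 CPM in WT and 77.0 and 79.4 CPM in KO (0.67 ± 0.05). Zc3h12a, an RNase that degrades cytokine messages, measured 39.7 and 38.9 CPM in WT against 69.0 and 68.7 CPM in KO (0.81 ± 0.06), and Tnip3, a ubiquitin-binding inhibitor, 36.5 and 34.5 CPM against 57.4 and 58.0 CPM (0.70 ± 0.06). These 3 genes had folds many times their SE and no overlap between genotypes, as had 68.1% of all genes tested. Rel, the c-Rel subunit, measured 15.6 and 16.6 CPM in WT and 27.6 and 24.5 CPM in KO (0.69 ± 0.09). Nfkb2, a subunit of the alternative pathway, rose by 0.18 ± 0.05 and the kinase adaptor gene Tab1 had a log2 fold change of -0.20 ± 0.06. Of the subunit list, the 3 lower genes became 0 without WT replicate 1, without WT replicate 2 and in the DESeq2 Wald test, and the 3 higher became 1 without WT replicate 2, in the DESeq2 Wald test and with effective-length offsets.

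In the IL-22, IL-6 and STAT3 list, 10 of 20 genes were higher and 1, the receptor gene Lifr, was lower (median log2 fold change 0.12). Socs3, the feedback inhibitor of STAT3 signalling, measured 20.7 and 16.7 CPM in WT and 80.5 and 83.5 CPM in KO (2.13 ± 0.08, adjusted p = 8.87e-11). Osm, oncostatin M, a ligand of neutrophils and macrophages, measured 0.481 and 0.589 CPM in WT against 7.71 and 7.27 CPM in KO (3.79 ± 0.27). KO exceeded WT several times over for Socs3. Osm entered the test through the DSS-treated KO libraries alone, and without it 9 of 19 were higher and 1 lower (median 0.09). Il6 had 0 counts in both WT libraries and 8 and 1 in the KO libraries, and Il22 had 0 in WT and 4 and 2 in KO, which is too few for the test. Csf3, the granulocyte growth factor, had 0 and 1 counts in WT and 14 and 10 in KO. The shared receptor Il6st (log2 fold change -0.03) and Jak1 (0.01) passed no threshold. The single lower gene became 2 without KO replicate 1, 3 with the length trend removed and 0 with effective-length offsets.

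Of 19 acute-phase genes listed 10 could be tested. Of the 8 that did not enter through the DSS-treated KO libraries alone, 7 were higher and 0 lower, with a median log2 fold change of 1.17. C3, the central complement component, measured 26.0 and 25.1 CPM in WT and 64.0 and 60.9 CPM in KO (1.29 ± 0.07), and Saa3, an acute-phase serum amyloid A, 1.14 and 1.06 CPM against 23.6 and 25.6 CPM (4.47 ± 0.15). Antimicrobial and barrier protein genes were split, with 13 of 22 higher and 6 lower (median 0.42). Slpi, a protease inhibitor of mucosal secretions, measured 12 and 11 CPM in WT and 42.9 and 49.2 CPM in KO (2.00 ± 0.09). Reg3b, a lectin that kills bacteria, measured 178 and 182 CPM in WT and 114 and 124 CPM in KO (-0.59 ± 0.06), and Reg3g, its homologue, averaged 44.3 and 30.0 CPM (-0.56). Slpi thus stood higher and both Reg3 lectins lower in KO, with no overlap, as in 68.1% of all genes tested. The goblet cell lectin Zg16, the immunoglobulin transporter Pigr, Reg4 and Ang4 were the other lower members.

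Oxidase and nitric oxide genes were higher for 13 of 16 tested and lower for 1, with a median log2 fold change of 0.73. Nos2, the inducible nitric oxide synthase, measured 15.6 and 14.7 CPM in WT and 94.0 and 92.9 CPM in KO (2.63 ± 0.06). Duox2, the hydrogen peroxide source of the apical surface, measured 183 and 175 CPM in WT against 320 and 289 CPM in KO (0.77 ± 0.05), and its maturation factor Duoxa2 34.7 and 33.8 CPM against 69.4 and 75.3 CPM (1.08 ± 0.06). Both partners were higher in each KO library than in either WT library, where 68.1% of all genes tested had no overlap in either direction. The single lower gene, Noxa1, was not called without WT replicate 1, WT replicate 2 or KO replicate 1. Of 20 prostaglandin and leukotriene genes 5 were higher and 3 lower (median 0.09). Ptgs2, the inducible cyclooxygenase, measured 2.22 and 3.12 CPM in WT and 21.6 and 19.9 CPM in KO (2.95 ± 0.16).

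Receptors for microbial products were led by myeloid lectins. Of 19 Toll-like and NOD receptor genes tested 10 were higher and 1 lower. Without the 2 that entered through the DSS-treated KO libraries alone, 8 of 17 were higher and 1 lower (median log2 fold change 0.25). Over the 19, the higher count was 6 without WT replicate 2 and 5 in the DESeq2 Wald test. The single lower gene became 2 without KO replicate 1, untreated WT replicate 1 or untreated WT replicate 2, and with the length trend removed. Clec4e, a C-type lectin receptor of macrophages and neutrophils, measured 1.68 and 1.47 CPM in WT and 13.5 and 14.0 CPM in KO (3.12 ± 0.17). Tlr5, the flagellin receptor, was the lower member, with means of 3.87 CPM in WT and 1.98 CPM in KO (-0.96). Genes of inflammasomes, gasdermins and cell death had 9 of 33 higher and 8 lower (median 0.03), against 21.3% and 17.7% of all genes. Ripk3, the kinase of necroptosis, measured 30.7 and 31.6 CPM in WT and 69.6 and 74.3 CPM in KO (1.21 ± 0.06), and Zbp1, a nucleic acid sensor that binds RIPK3, 27.3 and 27.0 CPM against 55.1 and 56.0 CPM (1.03 ± 0.06). Mlkl, which RIPK3 phosphorylates, averaged 18.4 CPM in WT and 33.7 CPM in KO (0.87). Gsdmc3 fell from 286 and 286 CPM to 195 and 188 CPM (-0.58 ± 0.04), and its neighbours in the family Gsdmc2 (-0.46) and Gsdmc4 (-0.46), near-identical copies among which reads can be shared, were lower too.

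Interferon-inducible GTPase genes, which coat and disrupt pathogen vacuoles, were higher for 15 of 16 tested, with 0 lower and a median log2 fold change of 1.51. Gbp2 measured 14.2 and 14.0 CPM in WT and 39.6 and 40.6 CPM in KO (1.51 ± 0.07, adjusted p = 8.12e-10). Iigp1 measured 2.28 and 2.41 CPM in WT against 19.8 and 17.3 CPM in KO (2.98 ± 0.14), and Igtp 13.9 and 13.1 CPM against 36.7 and 40.9 CPM (1.52 ± 0.08). The KO libraries lay well over 2-fold above WT in all 3, and close paralogs such as Tgtp1 and Tgtp2 can share reads. Interferon-stimulated genes beyond this family were higher for 19 of 30 and lower for 1 (median 0.34), the lower one being Ifi27, which was not called without WT replicate 2. Ifit1bl1 measured 116 and 118 CPM in WT against 228 and 227 CPM in KO (0.96 ± 0.04). The classical type I targets Rsad2 (0.15), Mx1 (-0.07) and Ifit3 (0.21) passed no threshold.

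Antigen presentation genes of class I were higher for 19 of 23 and lower for 2 (median log2 fold change 0.48). Tap1, a subunit of the peptide transporter, measured 35.9 and 39.0 CPM in WT and 75.3 and 76.4 CPM in KO (1.02 ± 0.06), and the immunoproteasome subunit Psmb8 27.8 and 28.7 CPM against 60.1 and 66.3 CPM (1.16 ± 0.07). The lower members were the non-classical genes H2-T3 and H2-T23. H2-T3, which encodes the thymus leukaemia antigen of intestinal epithelium, measured 11.8 and 10.7 CPM in WT and 2.07 and 2.80 CPM in KO (-2.20 ± 0.15). Class II genes were higher for 7 of 10 with 0 lower (median 0.67), and 1 was lower with the length trend removed. H2-Ab1 measured 12.2 and 11.1 CPM in WT and 22 and 24.0 CPM in KO (0.98 ± 0.09), H2-Aa 10.2 and 11.8 CPM against 20.3 and 21.6 CPM (0.93 ± 0.09), and the invariant chain Cd74 33.5 and 32.8 CPM against 59.3 and 68.8 CPM (0.95 ± 0.07).

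Genes of differentiated surface cells were mostly lower in DSS-treated KO, with exceptions. Mature colonocyte genes were lower for 14 of 25 and higher for 4, with a median log2 fold change of -0.21. Slc20a1, a phosphate transporter, measured 405 and 415 CPM in WT and 271 and 264 CPM in KO (-0.61 ± 0.04). The carbonic anhydrase genes Car1 (-0.45) and Car2 (-0.42) and the water channel gene Aqp8 (-0.43) also fell. Clca4b, a secreted metalloprotease family member, went strongly the other way, with 111 and 112 CPM in WT and 921 and 891 CPM in KO (3.03 ± 0.05, adjusted p = 3.47e-14). Ion, water and butyrate transport genes were lower for 16 of 25 and higher for 2 (median -0.17). Cftr, the apical chloride channel, measured 229 and 221 CPM in WT and 154 and 146 CPM in KO (-0.59 ± 0.05). Slc9a2, a sodium and proton exchanger, measured 248 and 259 CPM in WT against 187 and 183 CPM in KO (-0.45 ± 0.04), and the butyrate carrier Slc5a8 547 and 543 CPM against 421 and 399 CPM (-0.41 ± 0.04). All 3 transporters were lower in both KO libraries than in either WT library, and 68.1% of all genes tested had no overlap in either direction.

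Of 7 genes of the guanylin and cGMP pathway, which drives fluid secretion through CFTR, 5 were lower and 0 higher (median log2 fold change -0.38), and 1 was higher without KO replicate 1. Guca2a, the ligand guanylin, measured 613 and 635 CPM in WT and 365 and 428 CPM in KO (-0.65 ± 0.06). Its receptor gene Gucy2c (-0.07) passed no threshold. Prkg2, the cGMP-dependent kinase downstream of it, measured 6.67 and 8.66 CPM in WT and 1.55 and 1.60 CPM in KO (-2.28 ± 0.20). The ligand and the kinase were thus lower without overlap, which 68.1% of all genes tested also lacked. The receptor lay within 0.07 of WT on the log2 scale.

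Goblet cell genes were lower for 11 of 18 with 0 higher, with a median log2 fold change of -0.32, and 3 were higher without KO replicate 1. Muc2, the gel-forming mucin, measured 3219 and 2965 CPM in WT and 2016 and 1806 CPM in KO (-0.69 ± 0.05). Clca1, a protease that remodels mucus, measured 1326 and 1299 CPM in WT against 774 and 766 CPM in KO (-0.77 ± 0.04), and Klk1, a kallikrein of goblet cells, 843 and 869 CPM against 443 and 483 CPM (-0.89 ± 0.05). The goblet cell factors Atoh1 (-0.46) and Spdef (-0.20) fell, whereas Tff3 (0.11), Agr2 (0.07), Spink4 (0.05) and Fcgbp (-0.04) passed no threshold. Mucin glycosylation genes were lower for 11 of 26 and higher for 5 (median -0.08). B3gnt6, which builds core 3 O-glycans, measured 16.1 and 14.2 CPM in WT and 3.11 and 3.72 CPM in KO (-2.15 ± 0.13). Gcnt3, a branching enzyme of mucin cores, measured 114 and 110 CPM in WT against 76.1 and 74.4 CPM in KO (-0.57 ± 0.05). Fut2, which adds terminal fucose, rose from 264 and 256 CPM to 381 and 380 CPM (0.55 ± 0.04).

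Rarer epithelial lineages were read next. Enteroendocrine genes were lower for 7 of 20 and higher for 2 (median log2 fold change -0.22). The 7 became 4 without WT replicate 1 and in the DESeq2 Wald test and 3 with effective-length offsets, and the 2 became 1 without WT replicate 1, WT replicate 2 or KO replicate 1. Gcg, the proglucagon gene, measured 45.8 and 43.4 CPM in WT and 26.0 and 23.2 CPM in KO (-0.86 ± 0.08), and Chgb, a granule protein, 176 and 173 CPM against 133 and 127 CPM (-0.43 ± 0.04). Cpe, carboxypeptidase E, was one of the 2 higher members, from 18.9 and 17.7 CPM to 25.3 and 29.1 CPM (0.57 ± 0.09). Tuft cell genes had 3 of 13 higher and 2 lower (median -0.12). Of the higher ones, Alox5ap (0.601 and 1.12 CPM in WT, 8.75 and 8.01 CPM in KO) is also expressed by myeloid cells. The 2 lower were the tuft cell kinase gene Dclk1 (-1.62) and Sh2d6 (-1.62), with means of 1.07 and 1.43 CPM in WT and 0.344 and 0.459 CPM in KO. They became 1 without WT replicate 1 or KO replicate 1 and 4 without KO replicate 2.

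General epithelial genes had 4 of 11 higher and 2 lower (median log2 fold change 0.07). Elf3, an epithelial transcription factor, measured 472 and 489 CPM in WT and 550 and 605 CPM in KO (0.27 ± 0.05). Cdx2, the homeobox gene that sets intestinal identity, measured 142 and 147 CPM in WT and 102 and 109 CPM in KO (-0.45 ± 0.05), and Hnf4a, a nuclear receptor of enterocyte differentiation, averaged 880 and 770 CPM (-0.19). Both identity factors fell, while Epcam (0.01), Cdh1 (-0.04) and Vil1 (0.07) passed no threshold. Tight junction genes were higher for 5 of 19 and lower for 4 (median -0.05), against 21.3% and 17.7% of all genes. The lower count was 8 with the length trend removed, and the higher count was 3 without WT replicate 1 and in the DESeq2 Wald test. Cldn8, a sealing claudin of the distal colon, measured 69.3 and 66.8 CPM in WT and 118 and 121 CPM in KO (0.81 ± 0.05). Cldn2, a pore-forming claudin, measured 182 and 186 CPM in WT and 230 and 222 CPM in KO (0.30 ± 0.04), and Cldn15, another pore-former, 158 and 166 CPM against 111 and 122 CPM (-0.48 ± 0.05). Desmosome and adherens junction genes had 3 of 15 higher and 3 lower (median -0.04), shares near those of all genes. That lower count was 6 without KO replicate 1, 0 without KO replicate 2 or WT replicate 1 and 1 with the length trend removed, and the higher count was 1 without WT replicate 1 or WT replicate 2.

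Wound-associated genes of the epithelium were mostly higher. Of 28 repair genes tested 18 were higher and 3 lower. Without the 3 that entered through the DSS-treated KO libraries alone, 15 of 25 were higher and 3 lower, with a median log2 fold change of 0.35. Ly6a, also called Sca-1, which marks the fetal-like epithelium of healing colon, measured 211 and 208 CPM in WT and 624 and 669 CPM in KO (1.63 ± 0.04, adjusted p = 5.12e-12). Ly6c1, a neighbour in the Ly6 family, measured 9.31 and 10.6 CPM in WT against 74.4 and 80.5 CPM in KO (2.96 ± 0.08), and Plet1, a surface protein of regenerating epithelium, 76.9 and 74.6 CPM against 176 and 170 CPM (1.20 ± 0.05). The genotypes stood far apart in all 3, which were named for their small p-values, and reads can be shared among Ly6 copies. The annexin genes Anxa1 (0.61) and Anxa2 (0.51) rose. Genes of the YAP programme were mixed. Ctgf (2.85) and Cyr61 (0.86) rose, while Clu (-0.28), Yap1 (0.06) and Tead1 (-0.11) passed no threshold. Ctgf was scarce, with 1 and 2 counts in WT and 13 and 11 in KO, and genes so scarce in WT enter the test more readily when KO is high. The lower members were the integrin Itga2 and the laminin chains Lama3 and Lamb3.

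Keratin genes were higher for 9 of 12 with 0 lower (median log2 fold change 0.29), and 1 was lower without KO replicate 2 and with the length trend removed. Krt20 of the surface epithelium measured 828 and 825 CPM in WT and 1048 and 1039 CPM in KO (0.34 ± 0.04). Krt36 and Krt84, hair-type keratins, measured 1.74 and 1.88 CPM against 5.98 and 7.84 CPM (1.93 ± 0.20) and 3.24 and 2.83 CPM against 8.98 and 8.30 CPM (1.51 ± 0.15). Of 25 matrix protease and plasminogen genes listed 16 could be tested, and 5 of those, all higher, entered through the DSS-treated KO libraries alone. Of the other 11, 6 were higher and 1 lower (median 0.27). The lower count was 2 without WT replicate 1. Plat, tissue plasminogen activator, measured 1.02 and 1.18 CPM in WT and 11.3 and 10.6 CPM in KO (3.31 ± 0.21), and Adam8, a leukocyte metalloprotease, 2.16 and 1.71 CPM against 11.6 and 12 CPM (2.60 ± 0.18). Mmp15, a membrane-type protease, was the lower member. EGF family and receptor genes were 5 higher and 5 lower of 15 (median -0.06). The ligand genes Areg, 21.3 and 19.3 CPM in WT against 36.0 and 33.5 CPM in KO (0.78 ± 0.07), and Hbegf, 19.9 and 17.5 CPM against 29.5 and 31.0 CPM (0.69 ± 0.08), were higher. The receptor genes Erbb3 (479 and 465 CPM against 376 and 328 CPM, -0.42 ± 0.06) and Erbb2 (-0.16) were lower. The lower count became 2 without WT replicate 1, 3 without WT replicate 2, in the DESeq2 Wald test and with the length trend removed, and the higher count 3 without WT replicate 2 and 2 in the DESeq2 Wald test.

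**Figure D3:**
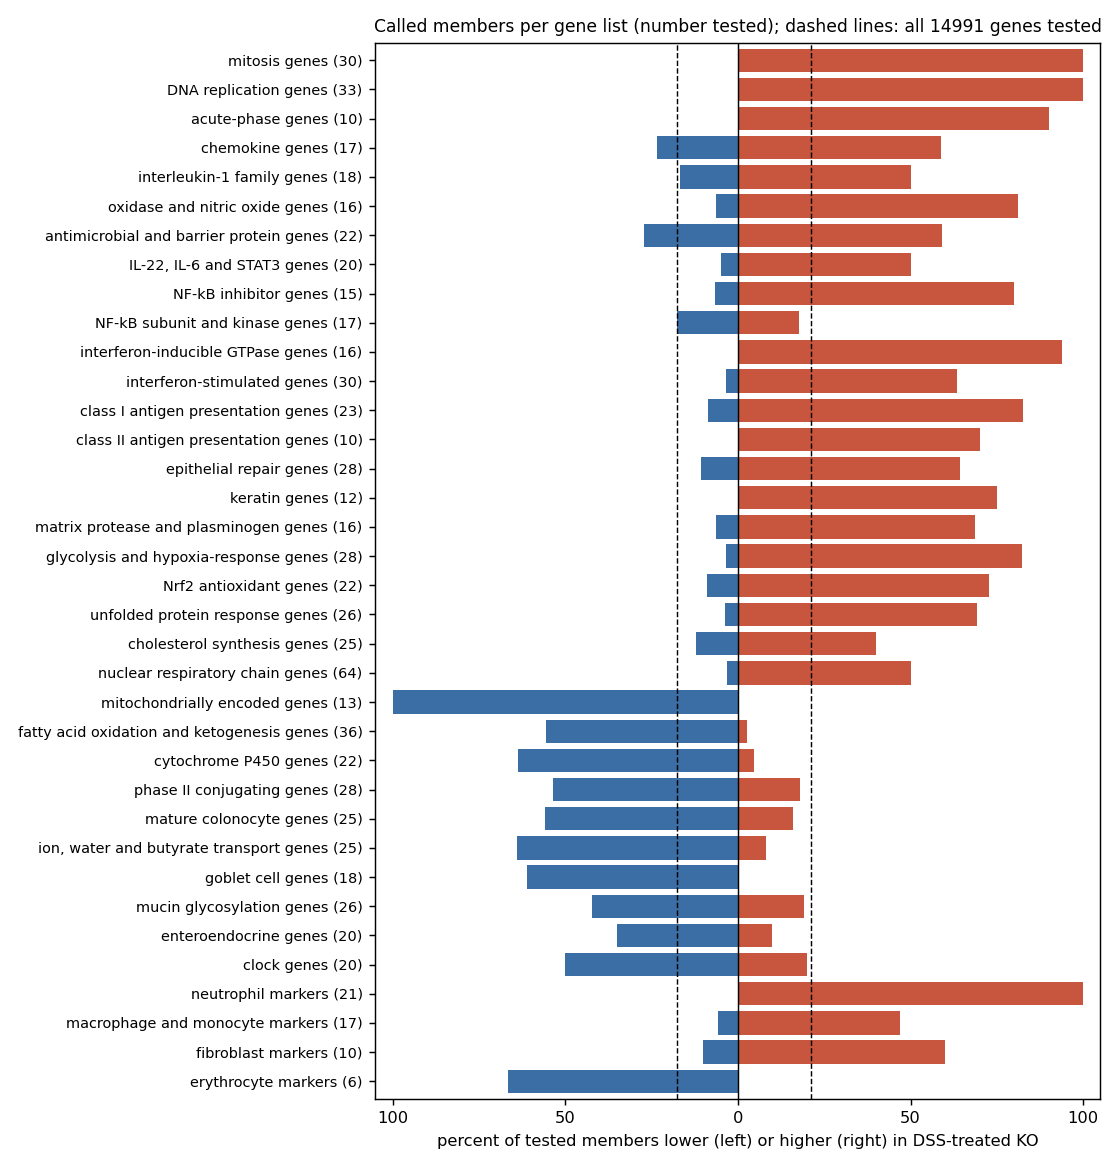
Percent of the tested members of each gene list that were higher (red, right) or lower (blue, left) in DSS-treated KO, with the number tested in brackets. Dashed lines mark the shares over all 14991 genes tested, 21.3% higher and 17.7% lower. The mitosis, DNA replication and neutrophil lists reach the right edge and the mitochondrially encoded list the left edge, though 11 of the 21 neutrophil markers entered the test through the DSS-treated KO libraries alone.

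Energy metabolism genes split by pathway. Glycolysis and hypoxia-response genes were higher for 23 of 28 and lower for 1, Ndrg1, with a median log2 fold change of 0.64. Pgk1, a glycolytic kinase, measured 369 and 386 CPM in WT and 756 and 814 CPM in KO (1.06 ± 0.04, adjusted p = 5.25e-10), and Hk2, the inducible hexokinase, 135 and 132 CPM against 283 and 260 CPM (1.02 ± 0.05). Slc16a3, the lactate exporter MCT4, measured 9.19 and 9.13 CPM in WT and 31.2 and 34.6 CPM in KO (1.84 ± 0.09). The genotypes did not overlap in any of the 3, as in 68.1% of all genes tested. Hif1a rose too, from means of 193 to 313 CPM (0.70), while Vegfa (-0.02) passed no threshold.

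Fatty acid oxidation and ketogenesis genes were lower for 20 of 36 and higher for 1 (median log2 fold change -0.22). Fabp2, which carries fatty acids within enterocytes, measured 110 and 115 CPM in WT and 33.2 and 35.5 CPM in KO (-1.71 ± 0.06). Hadh, an enzyme of beta-oxidation, measured 297 and 296 CPM in WT and 233 and 244 CPM in KO (-0.31 ± 0.04). Both genes were lower in each KO library than in either WT library, beside 68.1% of all genes tested without overlap in either direction. The regulator genes Ppara (-0.98), Pparg (-0.28) and Ppargc1a (-0.49) and the target Pdk4 (-1.39) were also lower, whereas Cpt2 (-0.03) and Ppard (0.04) passed no threshold. The single higher gene was Acadl, and the count was 3 without KO replicate 1 and 0 without WT replicate 1.

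All 13 mitochondrially encoded genes were lower (median log2 fold change -0.53). Mitochondrial genes took 7.45% and 7.50% of counts in WT and 5.29% and 4.91% in KO. The cytochrome oxidase gene mt-Co1 measured 40920 and 41098 CPM in WT and 26893 and 24754 CPM in KO (-0.67 ± 0.04), and the complex I gene mt-Nd5 2433 and 2323 CPM against 1595 and 1319 CPM (-0.71 ± 0.06). Nuclear genes of the respiratory chain were higher for 32 of 64 and lower for 2 (median 0.14). That higher count was 53 without KO replicate 1, 11 without KO replicate 2, 7 without WT replicate 1 and 15 without WT replicate 2. It was 19 in the DESeq2 Wald test, 16 with effective-length offsets or with only the 4 DSS libraries, and 5 higher against 8 lower with the length trend removed. These genes are short, with a median of 724 bases. The 2 lower became 0 without WT replicate 2 and 1 without KO replicate 1, untreated KO replicate 1 or untreated KO replicate 2. Uqcrq, a complex III subunit, measured 107 and 112 CPM in WT and 137 and 156 CPM in KO (0.42 ± 0.06).

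Drug and steroid metabolism genes were mostly lower. Cytochrome P450 genes were lower for 14 of 22 and higher for 1 (median log2 fold change -0.39), and the higher one, Cyp4f40, was not called without WT replicate 1 or in the DESeq2 Wald test. Cyp2c65 measured 64.5 and 64.1 CPM in WT and 25.1 and 26.2 CPM in KO (-1.33 ± 0.06), and Cyp2c68 127 and 135 CPM against 80.0 and 79.6 CPM (-0.71 ± 0.05). Phase II conjugating genes were lower for 15 of 28 and higher for 5 (median -0.22). The 5 became 3 without WT replicate 1 or KO replicate 2 and with the length trend removed. Sult1a1, a phenol sulfotransferase, measured 232 and 250 CPM in WT and 126 and 132 CPM in KO (-0.90 ± 0.05). Ugt1a6a, a glucuronosyltransferase whose locus shares exons with its family, measured 101 and 105 CPM in WT and 54.4 and 49.7 CPM in KO (-0.98 ± 0.07).

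Cholesterol synthesis genes were higher for 10 of 25 and lower for 3 under DSS (median log2 fold change 0.10), and 1 was lower without WT replicate 2. In the untreated libraries 22 of the 25 were higher and 1 lower (median 0.45), against 9.19% and 6.22% of all genes. The genotype difference was less positive under DSS than untreated in the interaction test for 18 of them and more positive for 1, where 10.6% and 10.8% of all genes were called. Fdps of the isoprenoid steps measured 130 and 121 CPM in WT and 156 and 167 CPM in KO (0.36 ± 0.05). Hmgcs1, the entry enzyme, had a log2 fold change of -0.002 and passed no threshold.

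Most redox and protein folding genes tested were higher. Nrf2 antioxidant genes were higher for 16 of 22 and lower for 2 (median log2 fold change 0.26), and 4 were lower with the length trend removed. Gpx2, the gut glutathione peroxidase, measured 368 and 370 CPM in WT and 809 and 895 CPM in KO (1.21 ± 0.05), and Gsr, glutathione reductase, 89.7 and 86.6 CPM against 157 and 155 CPM (0.82 ± 0.05). Nqo1 (-0.004), a common Nrf2 target, passed no threshold, and Nfe2l2 itself (-0.18) was lower. Unfolded protein response genes were higher for 18 of 26 and lower for 1 (median 0.27), and 3 were lower without KO replicate 1. The chaperone gene Hspa5 measured 407 and 420 CPM in WT and 582 and 603 CPM in KO (0.52 ± 0.04), and Hsp90b1 516 and 527 CPM against 728 and 747 CPM (0.50 ± 0.04). The lower member was Ern2 (-0.58), the IRE1 form of mucus-secreting cells, and Ddit3 (-0.01) passed no threshold.

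Metal transport and metallothionein genes were 8 higher and 4 lower of 16 (median log2 fold change 0.09). Tfrc, the transferrin receptor, measured 345 and 347 CPM in WT and 740 and 700 CPM in KO (1.06 ± 0.04), and Mt2, a metallothionein, 44.9 and 44.9 CPM against 87.7 and 94.8 CPM (1.02 ± 0.07). Immediate-early genes were 8 higher and 6 lower of 23 (median 0.19). Jun measured 105 and 106 CPM in WT and 62.3 and 68.3 CPM in KO (-0.69 ± 0.05), whereas its partner Junb rose from 89.8 and 99.5 CPM to 131 and 136 CPM (0.49 ± 0.05). Ier3, an NF-κB-responsive survival gene, measured 6.97 and 6.59 CPM in WT against 16.7 and 18.6 CPM in KO (1.38 ± 0.12).

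Clock genes were lower for 10 of 20 and higher for 4, with a median log2 fold change of -0.19. The higher count was 2 with effective-length offsets. Nr1d1, the repressor REV-ERBα that shares sites with RORα, measured 98.5 and 95.3 CPM in WT and 65.1 and 62.4 CPM in KO (-0.60 ± 0.05), and Nr1d2, REV-ERBβ, 123 and 124 CPM against 93.2 and 87.7 CPM (-0.45 ± 0.05). Dbp, a clock output factor, measured 61.5 and 63.1 CPM in WT and 36.1 and 41.9 CPM in KO (-0.68 ± 0.07), and Per3 64.7 and 65.1 CPM against 46.0 and 43.7 CPM (-0.53 ± 0.05). All 4 were lower in both KO libraries. In untreated libraries Nr1d1 (-0.60) and Dbp (-0.43) were lower in KO too, while Nr1d2 (-0.08) and Per3 (0.05) were not called. The 4 higher clock genes under DSS were Nfil3 (1.42), Cry1 (0.50), Npas2 (0.38) and Bhlhe40 (0.20). Rorb, a close relative of Rora, had 7 and 8 counts in WT and 1 and 2 in KO, too few for the test. Arntl (0.18), a textbook ROR target, and Clock (-0.07) passed no threshold. The hour of sampling is not given in the sources used here, so time of day and genotype cannot be told apart for these genes.

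Markers of other cell types moved in the same libraries. Of 26 neutrophil markers listed 21 could be tested, and 11 of those, among them Ngp and Wfdc21 with 0 counts in WT, entered through the DSS-treated KO libraries alone and so were selected by their level there. The other 10 were all higher, with a median log2 fold change of 3.05. Over all 21 tested markers, those 11 included, the summed level was 67.1 and 69.5 CPM in WT and 390 and 417 CPM in KO. It was 24.9 and 24.7 CPM and 287 and 305 CPM without Ly6g, which untreated epithelium also held at 85.7 to 99.2 CPM. S100a8 and S100a9, the calprotectin subunits, measured 1.68 and 2.00 CPM in WT against 52.9 and 58.3 CPM in KO, and 3.67 and 3.53 CPM against 86.8 and 93.7 CPM. The granule gene Elane had 0 counts in all libraries and Mpo 0 and 2 in KO. S100a8, S100a9, Retnlg, Mmp9 and Il1r2 are neutrophil products and also lead the lists of rises and of inflammatory genes above. How much of the chemokine, interleukin, acute-phase, protease and receptor changes came with these cells was not tested.

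Macrophage and monocyte markers were higher for 8 of 17 and lower for 1 (median log2 fold change 0.68). The higher count was 5 without WT replicate 1, 4 without WT replicate 2 and in the DESeq2 Wald test, and 5 with effective-length offsets, and 2 were lower without KO replicate 2. Summed, they measured 148 and 143 CPM in WT and 205 and 214 CPM in KO. Mertk, a receptor for the uptake of dying cells, was the lower member, from 57.4 and 53.5 CPM to 34.9 and 34.3 CPM (-0.68 ± 0.06). Fibroblast markers were higher for 6 of 10 tested and lower for 1, and for 5 and 1 of the 8 that did not enter through the DSS-treated KO libraries alone, with a sum of 31.2 and 30.6 CPM in WT and 47.2 and 43.1 CPM in KO.

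Markers of the remaining blood and tissue cells were low or went different ways. T and NK cell markers had 0 of 10 tested called (21 listed, 3 tested through the DSS-treated KO libraries alone) and a sum of 10.3 and 12.4 CPM in WT and 10.8 and 10.4 CPM in KO, and 1 was lower without KO replicate 1 and with effective-length offsets. Of 12 mast cell and eosinophil markers listed 4 could be tested, and 3 were lower. Among them were the protease genes Mcpt1 (11.8 and 12.3 CPM in WT, 3.57 and 3.49 CPM in KO, -1.77 ± 0.14) and Mcpt2 (5.83 and 5.71 CPM, 1.67 and 2.17 CPM, -1.58 ± 0.20). The other was the receptor gene Kit (63.0 and 60.7 CPM, 36.8 and 34.3 CPM, -0.80 ± 0.06). Kit made up most of the list's sum under DSS, which was 81.1 and 78.9 CPM in WT. In untreated WT that sum was 60.0 and 62.3 CPM, with Mcpt1 at 0.801 and 0.896 CPM. Which cells held the Kit RNA was not tested. Haemoglobin genes were lower as well, with 4 of 6 erythrocyte markers called and a sum of 161 and 162 CPM in WT against 89.2 and 96.7 CPM in KO. B and plasma cell markers were lower for 3 of 8 and higher for 1, and the lower count was 1 without WT replicate 1, WT replicate 2 or KO replicate 2 and in the DESeq2 Wald test. Of the endothelial list only Vwf of 2 tested was lower (-0.49 ± 0.15), and it was not called without WT replicate 1, WT replicate 2 or KO replicate 2. Of the neuron and glia list Ret, of 3 tested, was higher, with a sum of 10.9 and 12 CPM in WT against 18.9 and 19 CPM in KO, and of the smooth muscle list 0 of 2 were called. Markers of other cells thus moved in both directions, and their part in the epithelial results was not tested.

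**Figure D4:**
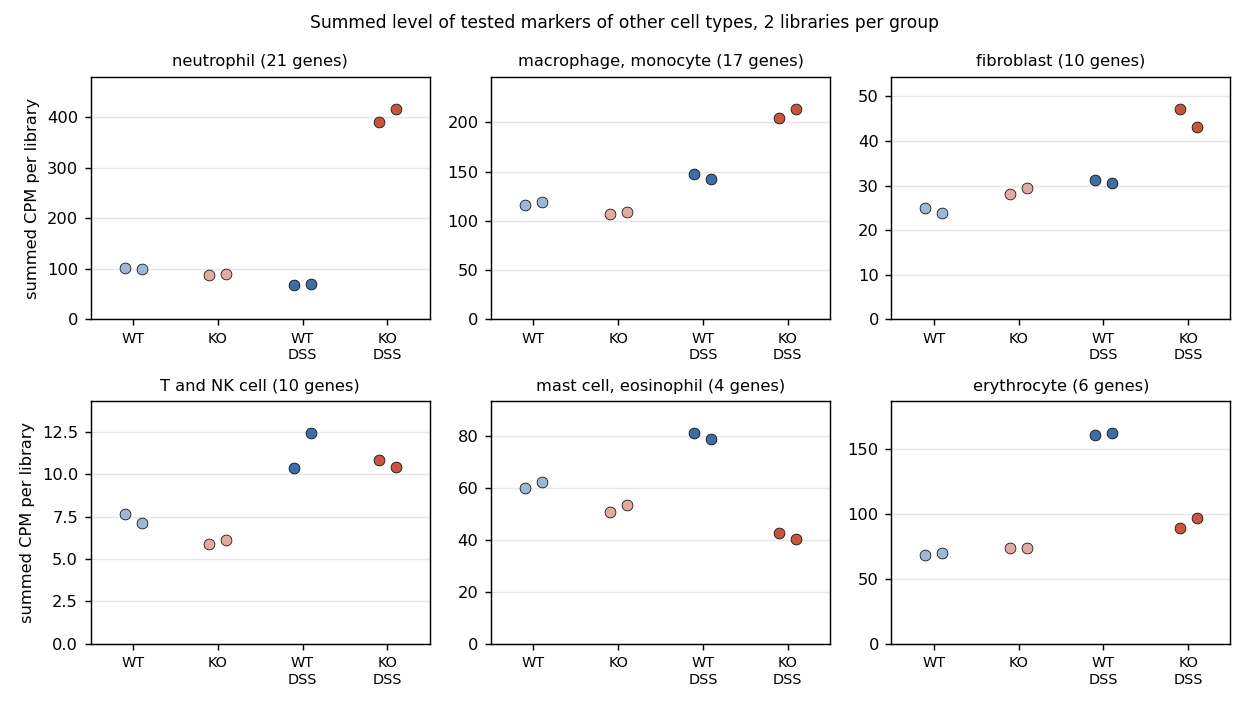
Summed CPM of the tested markers of 6 other cell types in each of the 8 libraries (y axes start at 0), with 2 points per group. Neutrophil markers stood at 390 and 417 CPM in DSS-treated KO and between 67.1 and 102 CPM elsewhere. Without Ly6g their sum was 2.67 to 3.19 CPM untreated, 24.9 and 24.7 CPM in DSS-treated WT and 287 and 305 CPM in DSS-treated KO. Of the 21 neutrophil markers, 11 entered the test through the DSS-treated KO libraries alone. Mast cell and eosinophil markers, most of whose sum under DSS was Kit, and erythrocyte markers were lower in DSS-treated KO than in DSS-treated WT.

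The genotype difference under DSS was then set beside that in untreated mice, which uses other libraries. Of the 3198 genes higher under DSS, 783 were also higher untreated, 94 lower and 2321 not called. Of the 2657 lower under DSS, 429 were lower untreated, 192 higher and 2036 not called. In untreated libraries 1378 genes (9.19%) were higher and 932 (6.22%) lower in KO. The interaction test, which asks whether the genotype difference itself differed, called 1613 genes more positive under DSS (10.8%) and 1595 more negative (10.6%). Among the mitosis genes 27 of 30 and among the DNA replication genes 26 of 33 were called more positive, and 28 and 25 of them were already higher in untreated KO. Top2a measured 79.0 and 76.3 CPM in untreated WT and 125 and 115 CPM in untreated KO, so its interaction was 0.79 (adjusted p = 8.04e-06).

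For 2 gene groups the untreated and DSS counts stand side by side, and the difference between the groups was not tested. Glycolysis and hypoxia-response genes had 5 of 28 higher untreated, against 9.19% of all genes, and 20 called more positive under DSS, against 10.8%. Interferon-inducible GTPases had 12 of 16 higher untreated, and 2 were called more positive in the interaction, a share near that of all genes. Gbp2 measured 36.5 and 35.9 CPM in untreated WT and 103 and 99.3 CPM in untreated KO, so its fold was 1.48 untreated and 1.51 under DSS (interaction 0.03, adjusted p = 0.853). Some genes that fell under DSS had risen in untreated mice. Fabp2 measured 128 and 123 CPM in untreated WT and 232 and 227 CPM in untreated KO, a log2 fold change of 0.87 ± 0.05 against -1.71 under DSS (interaction -2.58, adjusted p = 2.93e-11). Abca12, a lipid transporter, measured 3.90 and 4.48 CPM in untreated WT and 10.3 and 9.49 CPM in untreated KO, then 9.79 and 8.30 CPM in DSS-treated WT and 3.16 and 2.29 CPM in DSS-treated KO (interaction -2.97). Muc2 (0.31 untreated, -0.69 under DSS) and Guca2a (0.38, -0.65) also changed sign and were called in the interaction.

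**Figure D5:**
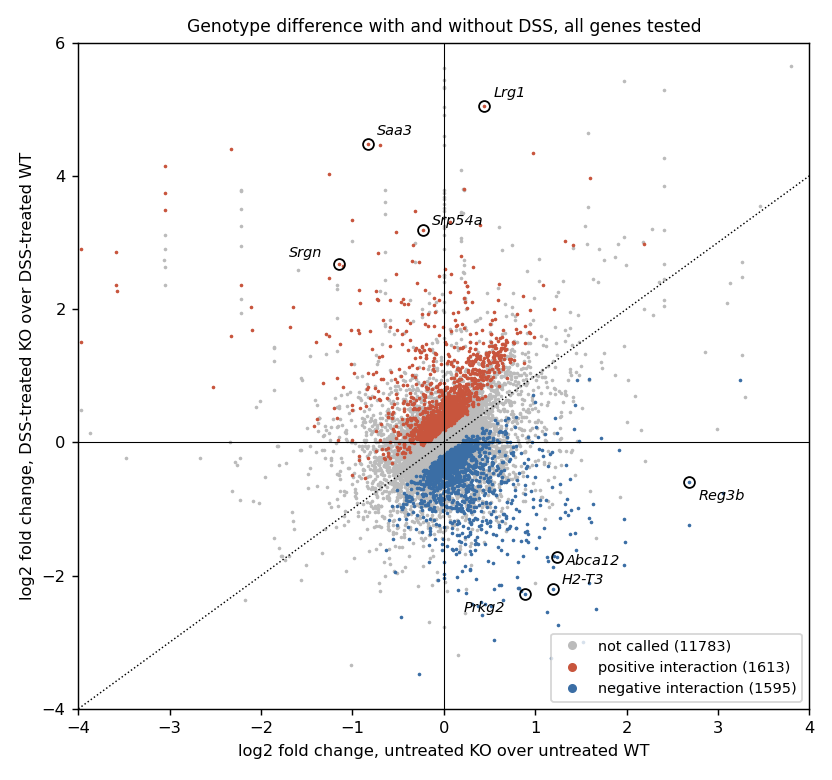
Log2 fold change of KO over WT in untreated mice (x axis) and under DSS (y axis) for all genes tested, of which 32 lie outside the axes. Colours mark genes called in the interaction test, 1613 positive (red) and 1595 negative (blue), and circles mark the 4 largest of each sign at a mean level of 5 CPM or more.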

How the data were processed

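RNA sequencing of distal colon epithelial cells gave 8 libraries, 4 of them DSS-treated, with 2 per group, named WT or KO replicate 1 and 2 after their labels. The deposited table of each library lists 53379 genes with the authors' expected counts, TPM and FPKM, per the file headers. Alignment and counting tools named in the submitters' processing notes are STAR 2.5.3a and RSEM 1.3.0, with DESeq2 1.18.1 and the build mm10. The annotation release and the strandedness of the counting are not given in the sources used here. Gene positions are those of GENCODE M21 on mm10, matched by Ensembl identifier.

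Expected counts, as deposited, were rounded and tested with the quasi-likelihood test of edgeR 4.0.16 (R 4.3.3), with TMM scaling and the edgeR filter on low counts, which kept 14991 genes. All 8 libraries entered 1 model with a mean per group and 4 residual degrees of freedom, and p-values were adjusted by Benjamini-Hochberg over all genes tested, with a threshold of 0.05. The interaction contrast set the genotype difference under DSS against that in untreated libraries. CPM are counts scaled to a library of 1000000 after TMM. The SE was taken as the size of the log2 fold change over the square root of F. TPM and FPKM, as deposited, supply no value printed here. RSEM divides reads among similar copies, so values of multigene families (Ly6, H2, Gbp, Cyp2c, Ugt, haemoglobin) are uncertain. The script was tested on simulated data.

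The members and gene lists were chosen with earlier results of these data known. Named genes were Rora, the 12 largest rises and 12 largest falls with a mean of at least 5 CPM and groups that did not overlap, and up to 3 called members of each list with the smallest p-values. That ranking skipped pseudogenes, gene models lacking an approved symbol, haemoglobins, ribosomal proteins and segments of antigen receptors. Some genes that these rules name are not reported here. The same minimum applied to the 4 largest interactions of each sign. For the replicates, the 5 largest ratios each way among genes with at least 20 CPM were taken. Replicate numbers did not pair the libraries, with a correlation of deviations of 0.08 between WT and KO under DSS. Alternatives were DESeq2 1.42.0, other size factors, effective-length offsets, no filter, genes with whole counts only, the 4 DSS libraries alone, a replicate block, each library left out, and length-trend offsets. For the last, a lowess of each library's deviation on log2 length was removed. Promoters (300 bases) are RefSeq entries of GRCm38.p6.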

Additional observations from a re-analysis of the deposited data

Results flagged for a closer look

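The genotype difference itself differed between DSS-treated and untreated mice for 3208 genes in the edgeR interaction test (21.4% of those tested), 1613 of them with a positive and 1595 with a negative value. At a mean level of 5 CPM or more, the positive extremes among the genes called were Saa3, Lrg1, Srgn and one gene model of Srp54a. Genes with almost no untreated counts had very wide errors in this test. Retnlg and S100a8, with 0 counts in every untreated library, had interactions of 5.04 and 4.91 and were not called. Saa3 had an interaction of 5.30 (adjusted p = 1.06e-05), with levels of 0.501 and 0.392 CPM in untreated WT and 0.191 and 0.306 CPM in untreated KO. Lrg1 had an interaction of 4.61 (adjusted p = 0.00477), and it was 3.22 (adjusted p = 0.317) without untreated WT replicate 1. In untreated libraries Lrg1 held 5 and 1 counts in WT and 5 and 2 in KO. Srgn, serglycin, the proteoglycan of haematopoietic granules, had an interaction of 3.82 (adjusted p = 4.85e-04), with 3.24 and 3.47 CPM in DSS-treated WT and 21.7 and 21.2 CPM in DSS-treated KO.

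Srp54a is listed as 2 gene models of near-identical sequence among which reads can be shared. The model on chromosome 12 from 55155104 to 55189573 had an interaction of 3.42 (adjusted p = 1.11e-04). It measured 33.1 and 30.4 CPM in untreated WT, 29.9 and 24.5 CPM in untreated KO, 1.62 and 0.765 CPM in DSS-treated WT and 14.9 and 6.92 CPM in DSS-treated KO. The other model of Srp54a stood between 35.4 and 57.4 CPM in all libraries.

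The negative extremes were H2-T3, Reg3b, Prkg2 and Abca12. Each was higher in untreated KO and lower in DSS-treated KO. H2-T3 had an interaction of -3.40 (adjusted p = 4.44e-08), with 6.61 and 7.56 CPM in untreated WT and 16.2 and 16.2 CPM in untreated KO. Reg3b had an interaction of -3.28 (adjusted p = 4.75e-04), from 0.350 and 0.056 CPM in untreated WT and 1.02 and 1.78 CPM in untreated KO. Prkg2 had an interaction of -3.17 (adjusted p = 8.85e-07) and Abca12 of -2.97 (adjusted p = 8.77e-07).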

How the results depend on the processing

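Over all alternatives run, length-trend offsets included, 0 of the 168 named gene results reversed in sign. Of their 2635 alternative values 2586 stayed on the same side of the threshold, and 49 lost it. The DESeq2 Wald test called 2153 genes higher and 1648 lower, with 183 lower at least 2-fold, kept 3801 of the 5855 calls and gave 856 positive and 828 negative interactions. Effective-length offsets gave 882 positive and 912 negative interactions and reversed 29 calls. Length-trend offsets gave 1529 positive and 1662 negative interactions. Without single libraries 3991 to 5567 calls were kept, the lowest without WT replicate 1. Genes higher ranged from 2331 to 3353, lower from 1776 to 2834, higher at least 2-fold from 592 to 624, lower at least 2-fold from 239 to 354, positive interactions from 950 to 2382 and negative from 956 to 2122. The cause was not tested. The replicate block, for numbers that do not pair the libraries, called 3153 genes higher and 2638 lower, 619 and 289 of them at least 2-fold, with 1555 positive and 1530 negative interactions. Of 1792 alternative list counts, 141 moved by over 1.5 times. Testing only genes with whole counts left 10096 genes, so list members dropped out by construction. With 2 libraries a group, genes with few counts in WT, such as Lcn2, carry wide errors, and nothing separates mouse from library preparation.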

Other observations

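Protein-coding genes made up 96.5% of the genes higher in DSS-treated KO, 92.3% of those lower and 87.1% of all tested. The share of tested genes called in either direction lay between 31.4% and 45.2% on every nuclear chromosome. The Y-linked gene Uty measured 27.4 to 34.2 CPM and Eif2s3y 61.7 to 71.3 CPM over all 8 libraries, whereas Xist had 0 to 9 counts. Of 4 Y-linked genes tested 2, Kdm5d (-0.24) and Ddx3y (-0.15), were lower in DSS-treated KO. Among secreted products too scarce for the test, Mmp3 had 0 counts in WT and 4 and 5 in KO, and Il17a had 0 and 1 counts in WT and 2 and 0 in KO. The neutrophil collagenase gene Mmp8 had 2 and 3 counts in WT and 124 and 112 in KO. Cd177, a neutrophil surface gene that this epithelium also held without DSS, measured 418 and 421 CPM in WT and 383 and 406 CPM in KO.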
